A study of Mus musculus with 46 samples.

Results

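D6T- and D12S- were the pair of H3.3 libraries compared here. D6T- cells were sorted on day 6 for absence of Thy-1, a surface protein of fibroblasts, and D12S- cells were sorted on day 12 for absence of SSEA-1, a surface antigen of pluripotent mouse cells. They are 2 of the 46 samples of the series, 30 of which came with a peak list and 12 of which were H3.3 libraries of reprogramming. The pair was chosen by the overlap of its peak lists in base pairs, the highest of the 66 pairs among those 12, so its overall likeness is given as a description and supports nothing by itself.

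The study followed H3.3 by ChIP-Seq while mouse embryonic fibroblasts (MEFs) were reprogrammed with retroviral Oct4, Sox2, Klf4 and c-Myc. The other H3.3 libraries were D0 (MEFs), D3 (unsorted), D6T+ and D9T+ (Thy-1 kept), D9T- (Thy-1 lost), D12S+ and D16S+ (SSEA-1 gained), D16S- (SSEA-1 not gained), iPSCs and the embryonic stem cell line ESD3. The MEFs carried an Oct4-IRES-EGFP reporter, and both fractions came from cultures infected with the 4 viruses and, per the labels, grown in the same feeder-free medium. Each group was 1 library, so there was no spread between replicates, no difference was tested, and every fraction is a sorted mixture in which fewer cells with a signal and less signal per cell cannot be told apart.

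H3.3 is a variant of histone H3 that can be placed in chromatin outside DNA replication. The Hira complex is known for placing it at promoters, enhancers and the bodies of transcribed genes, and Atrx with Daxx for placing it at repeats and other silent regions. In reprogramming, MEFs lose mesenchymal genes, gain epithelial genes early and switch on the pluripotency network late, and many cells remain on the way.

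D6T- held 29.7 M tags and 82669 analysed peaks over 127 Mb, and D12S- held 27.3 M tags and 87427 peaks over 141 Mb. The score of a peak is its number of tags per 10 M tags in the library, not divided by length. D12S- and D6T- had the highest and second highest shares of tags in peaks among the 12 libraries (22.0% and 19.3%, against 4.88% to 19.1% in the rest), so neither list was short of peaks, and peaks missing from 1 list are read only as not called there. Values given for a gene are the summed score of the peaks that overlap its body, and no peak means that none overlaps it, although a peak beside the gene may still count it as bound. The Thy1 gene checked the day 6 sort, with no peak in D6T-, 15.4 in D6T+ and 101 in D0. D12S- cells, which were sorted by SSEA-1 and not by Thy-1, had a Thy1 score of 54.0, while D12S+ had no peak there. The 54.0 came from a 3.91 kb peak (chr9:43847830-43851742), most of which lay outside the gene body (chr9:43851467-43856662). Fut4, which helps to make the SSEA-1 epitope, had no peak over its body in either library and checked nothing.

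To show what the peaks look like at the level of DNA, 100 bp are printed from a shared peak, from a D6T- peak without a D12S- counterpart and from a D12S- peak without a D6T- counterpart. They are high-scoring intergenic peaks with the letters TGANTCA, the site of AP-1 (Fos and Jun proteins), in the 500 bp around the midpoint. Candidates were limited to peaks at least 4 times over input, and not every part of the genome was searched. Peaks of each kind with higher scores can therefore exist. The printed peaks were 4.14 (shared), 4.96 (D6T- alone) and 4.11 (D12S- alone) times over input. The bases are on the plus strand of mm9, and the capitals mark those letters.

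shared, chr12:88235963-88236062: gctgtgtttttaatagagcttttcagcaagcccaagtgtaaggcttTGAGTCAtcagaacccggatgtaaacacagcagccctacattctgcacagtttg
D6T- alone, chr12:113198314-113198413: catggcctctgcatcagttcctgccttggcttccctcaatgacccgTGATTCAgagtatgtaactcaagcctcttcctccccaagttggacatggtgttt
D12S- alone, chr16:49840474-49840573: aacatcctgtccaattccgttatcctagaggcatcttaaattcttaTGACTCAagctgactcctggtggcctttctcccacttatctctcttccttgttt

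The shared peak was 26.1 kb long, with a score of 733 in D6T- and 1063 in D12S-, and it lay 10.3 kb from the nearest start site, that of 6430527G18Rik. It overlapped peaks in all 10 other H3.3 libraries, from 214 in ESD3 to 1024 in iPSCs. The peak called in D6T- but not in D12S- had a score of 37.6 and was also called in D3 (52.5) and D6T+ (49.1) but not in D9T-. Lower scores were seen there in D0 (19.1), D16S- (11.2), D9T+ (7.12) and iPSCs (5.47). The peak called in D12S- but not in D6T- had a score of 60.9, lay 15.3 kb from the start of Cd47, which codes for a surface protein that restrains phagocytes, and was also called in D9T- (36.5) and D9T+ (41.4). Scores of 4.98 (iPSCs) to 10.8 (D0) were seen there in D0, D6T+, D12S+, D16S-, iPSCs and ESD3. The shared example was thus a long domain seen throughout, while the other 2 were shorter. Both of these were called in D0, D6T+, D9T+, D16S- and iPSCs, and they differed in D3, D9T-, D12S+ and ESD3.

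The shared part of the lists was their high-scoring and long part. Scores are not divided by length, and the share of overlap that length alone would give was not tested. Of the D6T- peaks, 50687 (61.3%, 95% Wilson interval 61.0 to 61.6) overlapped a D12S- peak by at least 1 bp, and of the D12S- peaks, 49195 (56.3%, 55.9 to 56.6) overlapped a D6T- peak. These intervals, like all those that follow, cover counting error only. By base pairs, 80.0 Mb lay in peaks of both, which gives a Jaccard index (bp in both over bp in either) of 0.426, with D9T- and D12S- next at 0.413 and D6T- and D9T- after them at 0.398. The median score was 17.7 (D6T-) and 20.1 (D12S-) for shared peaks, against 7.25 for peaks of D6T- alone and 7.68 for peaks of D12S- alone. Per kb of peak the medians lay closer, at 13.8 and 14.3 for shared peaks against 12.8 and 13.1.

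**Figure D1:**
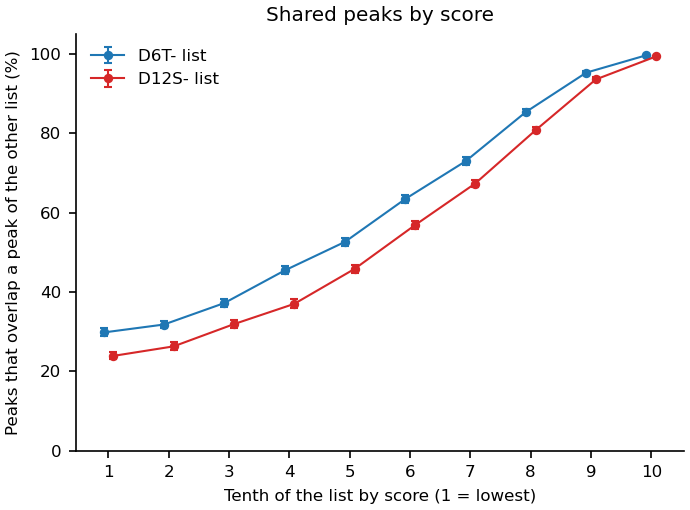
Share of peaks (y axis, %) that overlapped a peak of the other library, for 10 equal bins of peaks ordered by score (x axis, lowest to highest), in D6T- and D12S-, with 95% Wilson intervals as bars. The share went from 29.8% to 99.6% in D6T- and from 23.9% to 99.3% in D12S-.

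Among the 8267 highest-scoring D6T- peaks 99.6% were shared, and among the 8743 highest-scoring D12S- peaks 99.3%. Peaks of D6T- alone held 15.5% and peaks of D12S- alone 17.5% of the summed score of their lists. Fold over input did not separate the sets, with medians of 3.89 and 3.88 for shared peaks and 3.94 and 3.95 for the others, so the unshared peaks were short (median 500 bp, against 1294 and 1427 bp) rather than less enriched over input.

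All long H3.3 domains were held in common. D6T- had 876 peaks of at least 10 kb and D12S- had 1089, each of which overlapped a peak of the other library, and 99.0% and 96.0% of them were covered over at least 50% of their length. The longest, 89.9 kb over Nedd4 (chr9:72510364-72597649), which codes for a ubiquitin ligase, had a score of 1891 in D6T- and met 2 peaks with 1977 in D12S-. The region of Neat1, which codes for the nuclear RNA that builds paraspeckles, had 1321 in a 52.1 kb D6T- peak, while the D12S- peak there ran on over Malat1 to 68.6 kb with 1987 and met 4 D6T- peaks with 1658 in all. Matr3, coding for a nuclear matrix RNA-binding protein, had 1129 and 1099, and Anxa2, coding for a calcium-dependent membrane-binding protein, had 940 and 1120. Of the strongest domains of D12S-, Mir29a and Mir29b-1, microRNAs known to repress collagen transcripts, lay in a peak of 1714 where D6T- had 11 shorter peaks with 1179 in all, and a 57.6 kb domain over Socs3 and Pgs1 had 1213 against 892 over 8 peaks. A short peak at the annotated RNA gene AY036118 (1783 and 1791) was only 2.07 and 2.62 times over input, with 862 and 683 input tags per 10 M.

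Peaks on chromosome X stood apart from the rest. Both libraries had more X peaks (1041 in D6T- and 970 in D12S-) than any of the other 10 (290 to 815), yet a smaller share of them was common: 42.5% of the D6T- and 45.7% of the D12S- X peaks, against 57.3% to 65.8% and 52.6% to 61.1% on the 19 autosomes. As a share of all peaks, X peaks were 1.26% in D6T- and 1.11% in D12S-, the latter below D9T- (1.19%) and D16S+ (1.14%). X peaks were also weaker, with a median score of 7.92 against 10.8 on autosomes in D6T- and 8.60 against 11.3 in D12S-.

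Peaks that D12S- had alone lay more often at promoters and between genes, and peaks that D6T- had alone more often in introns. Promoter-TSS (1000 bp before to 100 bp after a start) took 5.97% of the D12S- and 3.91% of the D6T- peaks, a difference of 2.06 points (1.74 to 2.38). Intergenic sequence took 30.7% against 27.6% (3.03 points, 2.36 to 3.70), and introns 54.5% against 58.8% (-4.30 points, -5.03 to -3.56). Shared peaks of the D6T- and D12S- lists lay at promoters more often still (8.38% and 9.10%), and all sets exceeded the 1.83% of genome bases in that class. Exons differed by -0.290 points with an interval that spans 0 (-0.604 to 0.0216). With 500-bp peaks alone the promoter and intron differences were 0.875 and -2.58 points. The same order was seen among unshared peaks with a score of at least 20, where promoters took 9.68% of 2603 D12S- peaks, 6.38 points (4.91 to 7.80) more than of 1574 D6T- peaks, and introns 49.9% and 60.7%. The share of tags in peaks and the scores of the lists also differed, and their part in these differences was not tested.

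**Figure D2:**
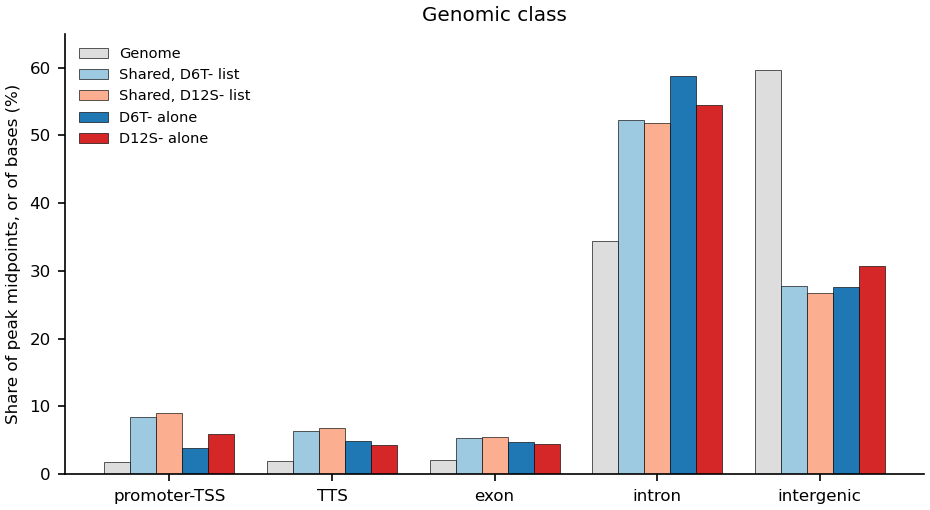
Share of peaks (%) at promoters, transcript ends, exons, introns and between genes, for shared peaks of either list and for peaks of D6T- or D12S- alone, by peak midpoint, beside the share of genome bases in each class. Promoter peaks were 5.97% of D12S- alone and 3.91% of D6T- alone, and intron peaks 54.5% and 58.8%.

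Presence in the other libraries was not used to choose the pair. Of the peaks D12S- had alone, 22.3% were called in D16S-, the later fraction without SSEA-1, against 12.2% of those D6T- had alone, a difference of 10.1 points (9.55 to 10.6) and the largest among the 10 libraries. They were also more often called in iPSCs (23.2% against 16.2%, 6.99 points, 6.40 to 7.57) and in D0 (30.1% against 24.1%, 6.00 points, 5.34 to 6.66), so the D12S- peaks were found more often both at the start and at the end of the process. D3 was the exception of the 10, with 18.5% against 20.3% (-1.82 points, -2.41 to -1.23). D12S- had the larger unshared peaks (51.3% at the minimum length of 500 bp, against 53.7%), and with 500-bp peaks alone the differences for D16S-, iPSCs and D0 shrank to 3.70, 3.54 and 2.55 points.

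**Figure D3:**
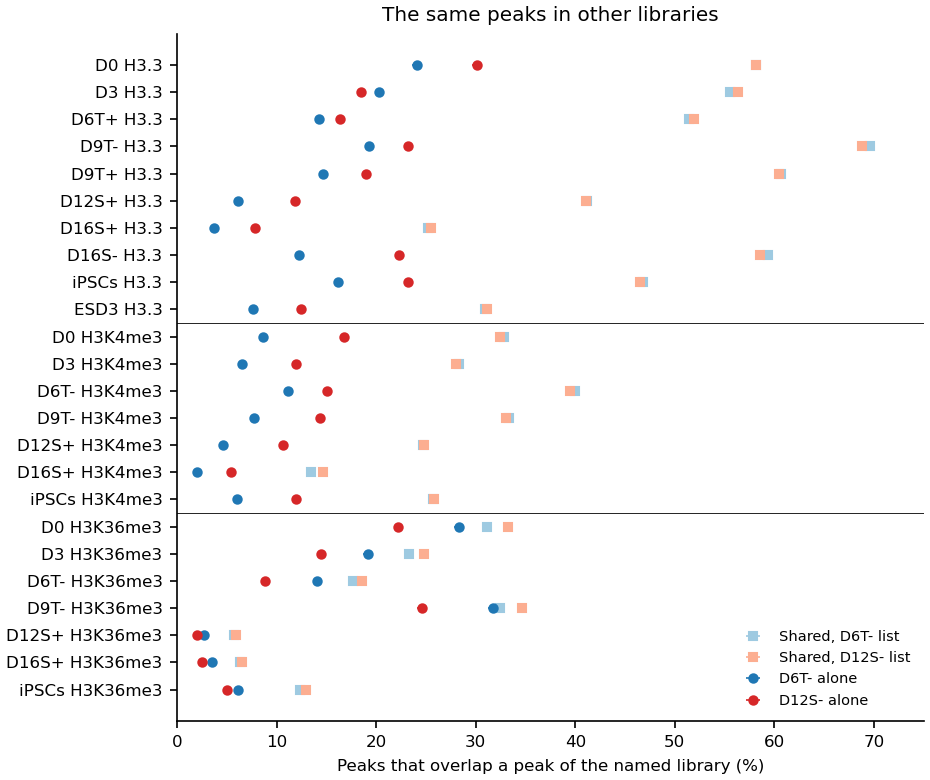
Share of peaks (x axis, %), shared or of D6T- or D12S- alone, that overlapped a peak of each other H3.3 library and of each H3K4me3 and H3K36me3 library, with 95% Wilson intervals as bars. D12S- alone lay higher in 9 of the 10 H3.3 libraries and in all 7 H3K4me3 libraries, and lower in all 7 H3K36me3 libraries.

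The histone marks split the same way. H3K4me3, the mark of active promoters, was found at more of the D12S- peaks in each of its 7 libraries, by 3.42 points (D16S+) to 8.15 points (D0), and H3K36me3, the mark of transcribed gene bodies, at fewer of them in each of its 7, by -0.643 points (D12S+) to -7.11 points (D9T-). In D6T- itself, H3K4me3 met 15.1% of the D12S- peaks against 11.1% of the D6T- peaks, and H3K36me3 8.83% against 14.1%. Mark libraries of D12S- were not analysed here, and the genomic classes above moved with these shares. Of the D6T- peaks alone, 37.1% were in none of the other 10 H3.3 libraries and of the D12S- peaks alone 28.7%, against 4.92% and 5.37% of the shared peaks. With a score of at least 20 these shares fell to 8.58% (135 of 1574) and 1.96% (51 of 2603), so a strong peak that is missing from 1 member of the pair was in most cases seen elsewhere.

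The strongest unshared peaks showed both kinds. The highest of D6T- (258, chr3:148715242-148716140, intergenic, nearest start Lphn2) was called in 8 other libraries, up to 650 in ESD3. Nemf, which codes for a ribosome quality control factor, had an intron peak of 80.1 in D6T-, which met 35.0 in D3 and 27.8 in D9T+. The promoter of 4931408C20Rik had 93.7 at only 2.02 times over input and was called in no other library. In D12S- the highest was at Pou5f1 (chr17:35642982-35647721), which codes for Oct4, with an intron peak of 261 and another of 241 upstream of the gene, at 2.16 and 2.38 times over input. The cells carried viral Oct4 and a reporter at this locus, so reads over the gene from the endogenous and the added copies cannot be told apart. The peak of 241 lay outside the gene with 101 input tags per 10 M, and the source of this input was not tested. Bnip3 (chr7:146081758-146091470), coding for a mitophagy receptor, had 133 and was also at 213 in D16S- and 0 to 45.6 in the other libraries. The peak in Sfi1, a centriole protein gene, had 129 at 2.03 times over input and no counterpart elsewhere.

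Most genes were bound in both. A gene was called bound when a genic peak had its start site as the nearest. D6T- bound 12781 of the 22225 protein-coding genes (57.5%) and D12S- 13339 (60.0%), and 11744 were bound in both, which is 91.9% of the D6T- and 88.0% of the D12S- genes. Only 1037 (4.67%) were bound in D6T- alone and 1595 (7.18%) in D12S- alone. Genes bound in both had a median gene-body score (the summed score of the peaks on the gene) of 97.4 by the higher library, against 13.5 and 12.4 for those in D6T- or D12S- alone. The genes of D12S- alone were also bound in D16S- in 49.5% (47.0 to 51.9) of cases and those of D6T- alone in 34.4% (31.6 to 37.4). In D0 the shares were 57.5% and 54.1%, and in D3 they were 44.8% and 52.2%.

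Gene-body scores were compared for the 11569 genes with at least 20 in either library, a gene without a peak being set to the library's threshold (6.07 and 6.22). Here 2424 genes (21.0%) were at least 2-fold higher in D12S- and 1149 (9.93%) at least 2-fold higher in D6T-. The median log2 ratio was 0.16, and once scores were divided by each library's share of tags in peaks it was -0.04. The share of these calls that was higher in D12S- was 67.8% and became 57.4% under that scaling. Across the genes the scores correlated at Spearman rho 0.83 over 10914 genes with peaks in both, 73.3% of which lay within 2-fold, genes not being independent replicates.

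**Figure D4:**
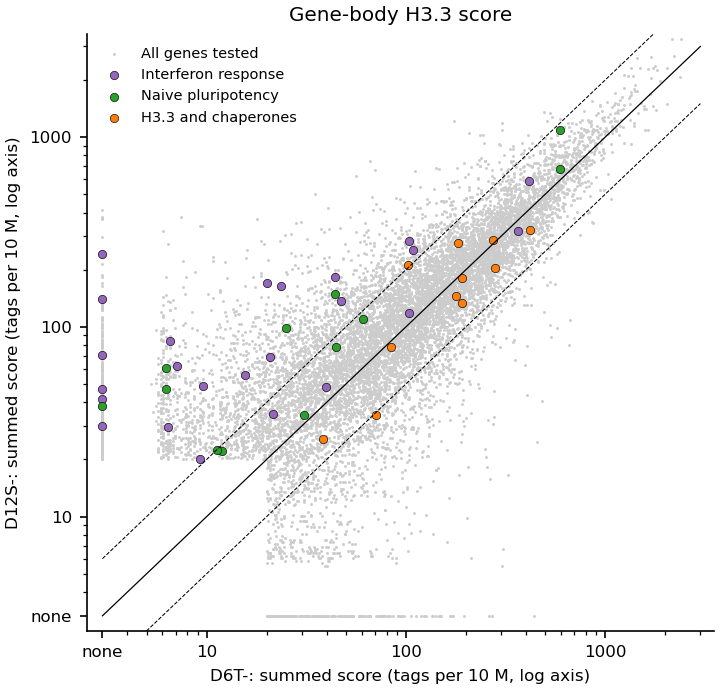
Gene-body score (tags per 10 M, log axes) in D6T- (x axis) and D12S- (y axis) for genes with at least 20 in either library; genes without a peak in a library are drawn at the edge marked none, 3 gene lists are coloured, and the lines mark equal and 2-fold different scores. Of 11569 genes, 2424 lay at least 2-fold higher in D12S- and 1149 in D6T-.

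The densest genes bound in both were picked by the lower of their D6T- and D12S- values. A high value in each library was thus set by that choice. Per kb of gene length, Hnrnpa3, coding for an RNA-binding protein, had 110 tags per 10 M per kb in D6T- and 120 in D12S-, and Eif4a1, coding for an RNA helicase of translation initiation, had 116 and 123. Prdx2 (a peroxidase of cellular redox control) had 98.4 and 118, and Impdh2 (guanine nucleotide synthesis) 97.4 and 107. Mpdu1 had 107 and 114 and shared its peak with Eif4a1. These peaks reach far past the genes, with 17.6% to 21.8% of their length inside. Counting only the part of a peak inside the gene, a choice made after values were seen, Npm1 and Ncl (nucleolar proteins), Rpl3 (a ribosomal protein) and Hsp90ab1 (a chaperone) were among the densest, with unscaled gene-body scores of 639 and 604, 574 and 522, 399 and 386, and 335 and 334. For each of these 4 genes the scores of day 6 and day 12 were nearly the same.

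The largest folds between the lists were mostly set by peaks that reach in from a neighbour. Lrrc10 (302 against 5.49) and Rasl11a (308 against 6.77) were highest in D6T-, but 4.65% and 5.22% of their peak length lay within the gene, and Fbxw9 (319 in D12S- against 6.07) had 8.95%. With the score counted inside the gene, Tgm2 (chr2:157942138-157972172), coding for a transglutaminase that crosslinks matrix proteins, had 144 in D12S- over 7 peaks and 6.07 in D6T-, 20.3-fold more within the gene. Xaf1, an interferon-induced proapoptotic gene, had 94.8 and 6.07 (24.7-fold within), and Scara5, a scavenger receptor gene of mesenchyme, 149 and 10.1 (14.7-fold). In the other direction, Ndst3 (heparan sulfate modification) had 102 in D6T- over 10 peaks and 6.59 in D12S-, Cacnb2 (a calcium channel subunit) 110 and 10.4, and Bub1 (a mitotic checkpoint kinase) 67.8 and 6.22. Samsn1, an adaptor gene of hematopoietic cells, had 74.6 over 6 peaks in D6T- and no peak in D12S-.

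Interferon response genes had more H3.3 in D12S-. This list of 32 genes was written after earlier values of these data had been seen, so its counts are a description. In D12S- 28 were bound (87.5%) and in D6T- 20 (62.5%), against 60.0% and 57.5% of all genes, and 19 of the 24 compared were at least 2-fold higher in D12S- and 0 in D6T-, with a median log2 ratio of 2.14 against 0.16 for all genes compared. Summed over the list without scaling, D12S- had 3285, D16S- 2879, D0 1509 and D6T- 1364, and the other libraries had 461 to 1306. The share of tags in peaks was 22.0% in D12S-, 12.2% in D16S-, 6.93% in D12S+ (sum 978) and 4.88% in D16S+ (sum 786). D12S- and D16S- were thus highest by unscaled sum, and the part of these shares in that order was not tested. The shares were lower in D12S+ and D16S+, no scaled order is given, and no link to SSEA-1 is drawn.

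The letters that interferon regulatory factors read were frequent in their promoters. The letters GAAA followed, after any 2 bases, by GAAA again (the core of the interferon-stimulated response element, both strands) were found in the 250 bp upstream of 11 of the 32 genes (34.4%, 20.4 to 51.7) and of 749 of 22220 promoters (3.37%). The list was written as interferon response genes, so this share describes the list and supports nothing about H3.3. Of the genes with the letters, Ifit1, Ifit3 and Usp18 had no peak in either library. The promoter windows of Oas2, B2m and Bst2, all with higher scores in D12S-, are printed as examples of an RNA sensor, an antigen presentation and an antiviral gene with these letters. They are 250 bp of mm9, 5′ to 3′ on the gene's strand, with the letters in capitals.

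Oas2, chr5:121199863-121200112, minus strand: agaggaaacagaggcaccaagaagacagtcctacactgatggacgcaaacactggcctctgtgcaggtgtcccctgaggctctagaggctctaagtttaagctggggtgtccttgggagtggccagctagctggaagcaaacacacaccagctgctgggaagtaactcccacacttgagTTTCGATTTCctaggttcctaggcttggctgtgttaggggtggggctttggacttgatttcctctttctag
B2m, chr2:121973172-121973421, plus strand: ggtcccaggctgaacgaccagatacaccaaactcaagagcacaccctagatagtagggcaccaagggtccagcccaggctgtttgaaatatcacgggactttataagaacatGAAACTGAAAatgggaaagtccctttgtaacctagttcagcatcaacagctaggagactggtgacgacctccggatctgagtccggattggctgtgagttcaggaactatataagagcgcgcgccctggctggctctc
Bst2, chr8:74061337-74061586, minus strand: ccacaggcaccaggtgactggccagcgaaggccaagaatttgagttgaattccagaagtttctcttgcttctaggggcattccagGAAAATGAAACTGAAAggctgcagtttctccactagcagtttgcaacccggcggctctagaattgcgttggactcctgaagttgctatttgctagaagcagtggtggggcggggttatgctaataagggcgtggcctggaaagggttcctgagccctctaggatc

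Oas2 (chr5:121180342-121199862), which codes for an enzyme that senses double-stranded RNA, had 241 in D12S- and no peak in D6T-, and it had 150 in D16S-, 84.4 in D12S+, 88.7 in iPSCs and no peak in D0, D3, D6T+, D9T- or D9T+. Oasl2 (140) and Oas1a (71.0) likewise had no peak in D6T-. Among the transcription factors of this response, higher scores were seen in D12S- for several, with Irf9 at 184 against 44.0, Irf1 at 165 against 23.5 and Stat2 at 253 against 109. Ddx58, the RNA sensor RIG-I, had 282 against 104.

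Genes of antigen presentation were in the same direction. B2m, the light chain of class I molecules, had 84.5 in D12S- and 219 in D16S-, against 6.57 in D6T- and at most 8.90 in the other libraries. H2-K1, a class I heavy chain, had 56.0 against 15.5 (118 in D16S-), and Tap1, which carries peptides to it, had 62.0 against 7.08 (87.7 in D16S-). Bst2, the antiviral tetherin, had 136 against 47.2 (97.3 in D16S-). Tapbp was not lower in D6T-, with 363 against 318, and Ifit1, Ifit3, Mx1, Usp18 and Psmb8 had no peak in either. Day and sort both differ between D6T- and D12S- and cannot be told apart.

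**Figure D5:**
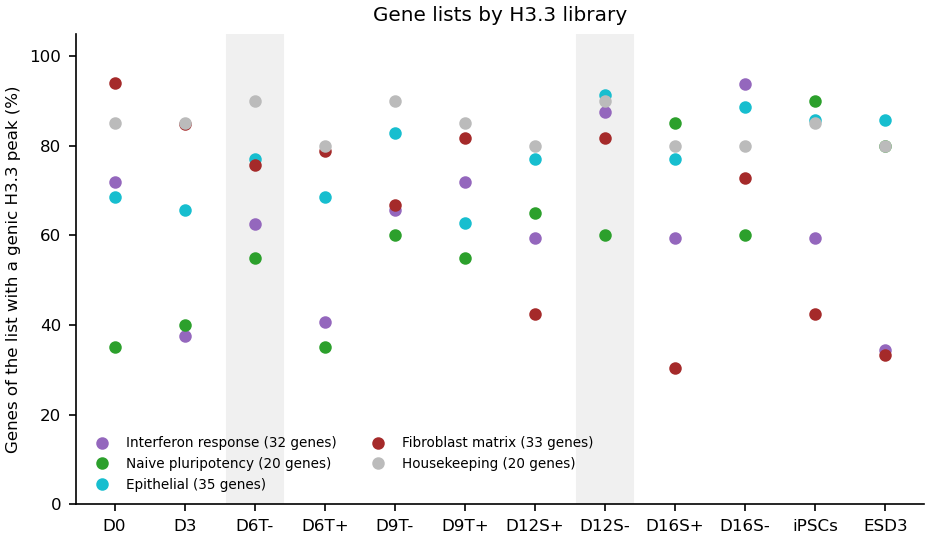
Share of the genes of 5 lists with a genic H3.3 peak (y axis, %) in each of the 12 H3.3 libraries (x axis), with D6T- and D12S- shaded and 1 point per list and library, some of which hide each other where shares are equal. For the 32 interferon response genes the share was 62.5% in D6T- and 87.5% in D12S-.

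A second list written after values were seen, of 23 matched inflammatory genes, had 7 of 16 compared at least 2-fold higher in D12S- and 1 in D6T-, against 21.0% and 9.93% of all genes, with a median log2 ratio of 0.82. Ccl2, which attracts monocytes, had 182 in D12S- and no peak in D6T-, and Nfkb1 (chr3:135247619-135354511), a subunit of NF-kB, had 461 against 150. Relb, another subunit, had 337 against 141. The neutrophil chemokine gene Cxcl5 went the other way, with 51.0 against 138. Socs3, which damps cytokine signalling, had 1213 against 175, but only 1.40-fold counted within the gene.

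Of the 33 fibroblast matrix and contractile genes, 25 were bound in D6T- (75.8%) and 27 in D12S- (81.8%), against 57.5% and 60.0% of all genes. Of 23 compared, 5 were at least 2-fold higher in D12S- and 2 in D6T-, close to the 21.0% and 9.93% of all genes. The list's median of 0.16 equalled that of all genes and became -0.03 under the scaling. Fbn1, which codes for fibrillin of elastic fibres, had 1222 in D6T-, 1135 in D12S- and 2311 in D0, but 386 in D9T- and 51.1 in D12S+. Vim (vimentin, an intermediate filament) had 371 and 414, Ddr2 (a collagen receptor) had 632 and 737, and Cd44 (a hyaluronan receptor, listed with the surface markers) had 1200 and 1389, while D12S+ had 144, 68.6 and 62.4. These 4 genes had similar scores in the pair. D12S+ had fewer tags in peaks altogether (6.93% against 22.0% in D12S-), and its sum over 20 housekeeping genes was 2426 against 6418, and the part of this general difference in the lower scores was not tested.

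Other genes of the list differed more. Thbs2, a matrix glycoprotein gene (chr17:14802507-14831269), had 225 in D12S- and 20.2 in D6T-, with 397 in D0. Timp3, an inhibitor of matrix proteases, had 239 and 84.3, and Fn1 (fibronectin) had 564 and 297. Col3a1, a fibrillar collagen, was lower in D12S- (85.2 against 162), and so was Col6a1 (6.04 against 85.5), whose order turned when only the part inside the gene was counted (1.81-fold higher in D12S-). Col5a1, at 2259 in D0, had 13.0 and 6.22. Among 15 mesenchymal transcription factors, Zeb1, a repressor of epithelial genes, had 192 against 97.4, Tbx15 297 against 510, and Meox2 18.1 against 58.2. Twist1 had 40.1 in D12S- and no peak over its body in D6T-.

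TGF-beta signalling, which maintains the mesenchymal state, was called at about the rate of all genes: of 20 compared genes of 22, 4 were at least 2-fold higher in D12S- and 1 in D6T-, with a median log2 ratio of 0.49. The receptor Tgfbr2 (chr9:115993415-116084383) had 919 over 23 peaks in D12S- and 294 over 14 in D6T-. The co-receptor Tgfbr3 had 323 against 167, and Ltbp1, which binds the latent ligand, 1476 against 944. Bmpr2, a receptor for the related BMPs, was lower in D12S- (191 against 310).

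For AP-1 and partner factors (18 genes), 5 of 15 compared were 2-fold higher in D12S- and 0 in D6T-, against 21.0% and 9.93% of all genes, but 3 of 15 under the scaling and 2 of 13 within the gene. Fosl2 had 461 against 230 and Fos 158 against 49.0, which came to 1.10-fold within the gene, and Runx1, under the 2-fold limit, had 921 against 491. Of 22 compared Mapk genes, 6 were 2-fold higher in D12S- and 1 in D6T-, close to the shares of all genes, and 2 and 1 under the scaling and 3 and 2 within the gene. The phosphatase Dusp5 had 239 against 76.3 and Spred1, an inhibitor of Ras signalling, 523 against 237, while the kinase gene Map2k4 (57.5 against 185) was lower.

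Of the 14 p53 and senescence genes compared, 5 were 2-fold higher in D12S- and 0 in D6T-, against 21.0% and 9.93% of all genes. Cdkn2b, which codes for the CDK inhibitor p15 (chr4:88952198-88956941), had 135 in D12S- and 6.57 in D6T-. Cdkn2a, coding for p16 and Arf, had 165 and 87.6, Btg2, an antiproliferative gene, 568 and 160, and Gadd45a, a growth arrest gene, 67.3 and no peak over its body. Cdkn2b came to 6.15-fold and Btg2 to 1.94-fold when counted within the gene.

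More epithelial genes were bound in D12S- than in D6T-. Of 35, 27 were bound in D6T- (77.1%) and 32 in D12S- (91.4%), against 57.5% and 60.0% of all genes. In D0 24 were bound, in D16S- 31 and in iPSCs 30, so the D12S- count was not particular to it. Of 27 compared, 10 were at least 2-fold higher in D12S- and 2 in D6T-, against 21.0% and 9.93% of all genes. When scores were divided by the share of tags in peaks, these came to 6 and 2, near the 17.1% and 12.7% of all genes under that scaling. Cdh1 (chr8:109127251-109194146), which codes for E-cadherin, had 71.0 in D6T- and 205 in D12S-, against 42.7 in D0 and 211 in D12S+. D12S+ had a smaller share of tags in peaks (6.93% against 22.0% in D12S-), whose part in these unscaled scores was not tested. Itgb4, an integrin subunit of hemidesmosomes, had 413 and 878, and Grhl1, a regulator of epithelial genes, had 85.6 and 207. Against this direction, the splicing regulator Esrp2 had 290 and 134 and the desmosome gene Pkp2 483 and 297. Dsp, another desmosome gene, had 266 and 314, against 6.49 in D0. Both D12S- and D6T- thus had H3.3 on epithelial genes as well as on mesenchymal genes above.

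Pluripotency genes were not absent from the fraction without SSEA-1. Of 20 naive pluripotency genes, 11 were bound in D6T- (55.0%) and 12 in D12S- (60.0%), near the 57.5% and 60.0% of all genes. Of 12 compared, 5 were 2-fold higher in D12S- and 0 in D6T-, against 21.0% and 9.93% of all genes. Sall4 (chr2:168573832-168593443), a zinc-finger factor, had 44.0 in D6T-, 148 in D12S- and 145 in D12S+, and none in D0. Tcfcp2l1, a factor of the naive state, had 6.24, 60.9 and 33.1, and Sall1 25.0, 98.4 and 26.0. Jarid2, a partner of the Polycomb complex, had 592 and 1086. Esrrb, Zfp42, Nr5a2 and Prdm14 had no peak in either. Nanog had 46.8 in D12S- and 6.24 in D6T-, against 121 in D12S+. These scores are not scaled, D12S+ had 6.93% of its tags in peaks against 22.0% in D12S-, and the part of this general difference was not tested. Of 20 late pluripotency effectors, 14 were bound in D6T- (70.0%) and 12 in D12S- (60.0%), against 57.5% and 60.0% of all genes. Of 9 compared, 3 were 2-fold higher in D12S- and 0 in D6T-, against 21.0% and 9.93% of all genes, and 1 of 9 was higher in D12S- under the scaling. Tet1, an enzyme of DNA demethylation, had 78.7 and 209, and L1td1 160 and 331, while Dppa2 and Dppa4 had no peak in either and were not bound. Among the loci of the delivered factors, Sox2 had 25.8 and 46.3, Myc 53.6 and 106, and Klf4 130 and 57.6.

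The study's text names a few genes by their course. Adcy7, an adenylyl cyclase gene, had 19.7 in D6T- and 54.8 in D12S-, Terf1, a telomere-binding factor gene, had 224 and 177, and Gtsf1 had 14.8 and no peak. Foxd3 and Otx2 had no peak in either.

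Of 11 genes of H3.3 and its deposition, 9 lay within 2-fold and 1 was at least 2-fold higher in each direction. Of all genes compared, 21.0% were higher in D12S- and 9.93% in D6T-. With input subtracted, 0 of the 11 were 2-fold higher in either direction. All 11 were bound in both, against 57.5% (D6T-) and 60.0% (D12S-) of all genes. The median log2 ratio was -0.30 (-0.48 under the scaling, -0.39 within the gene). By any amount, 8 of 11 were higher in D6T-, a share not given here for all genes. Hira, of the deposition complex, had 279 in D6T- and 205 in D12S-, Atrx 70.7 and 34.4, and the histone chaperone gene Nasp 417 and 324. Asf1a, which hands H3 to the deposition complexes, had 102 and 212. Of 20 housekeeping genes, 1 was 2-fold higher in each direction, and the median log2 ratio was 0.09 (-0.09 under the scaling).

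Some markers of other lineages also had peaks. Hematopoietic and endothelial markers were bound in 6 of 15 in each library, and 8 had no peak in either. This share was below the 57.5% (D6T-) and 60.0% (D12S-) of all genes. Among the members with peaks, Pecam1 (an endothelial adhesion gene) had 214 in D6T- and 430 in D12S-. Tek (the angiopoietin receptor) had 204 and 239. Of 14 neural markers, 9 and 10 were bound (64.3% and 71.4%, against 57.5% and 60.0% of all genes), with a median log2 ratio of -0.12, Nes (nestin, an intermediate filament of progenitors) having 62.7 in D6T- and 317 in D12S- and Mtap2 193 and 80.5. Skeletal muscle markers were bound in 5 of 10 in each (50.0%), and trophoblast and germ layer regulators in 5 and 6 of 14 (35.7% and 42.9%), both lists below the shares of all genes.

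The letters of AP-1 were spread over both lists. Within 500 bp windows at the midpoint of intergenic peaks, TGANTCA was present in 22.3% (D6T- list) and 22.4% (D12S- list) of shared peaks, 18.8% (18.0 to 19.7) of D6T- alone and 22.7% (22.0 to 23.5) of D12S- alone. Windows 5 kb away had it in 13.5% to 14.4%, and all intergenic peaks of the 12 libraries in 20.8%, from 28.0% in D0 to 15.7% in iPSCs. At a score of at least 20 the unshared peaks did not differ in this way, with 24.9% for D6T- and 24.5% for D12S-. The Sox letters AACAATG were more frequent in D6T- alone (10.7%) than in D12S- alone (8.72%), and GC content was 43.1% and 45.8%. Windows 5 kb away had the Sox letters in 9.84% and 8.98%, so the surroundings differed in the same direction. A match is a description of the sequence and not of binding.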

How the data were processed

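The members, gene lists and comparisons were chosen with earlier results of these data known, and the interferon and inflammatory lists after their values were seen. H3.3 ChIP-Seq was read from peak lists, 1 library per group. Per the paper's methods and the submitters' notes, the authors mapped reads to mm9 with STAR and called peaks with HOMER in histone style against an input library; versions are not given in the sources used here. The score is a signal in the deposited lists, tags per 10 M including input background. Fold enrichment is a deposited ratio to input, at least 2 for H3.3 and 4 for the marks, and the deposited p-value over input, not adjusted, was at most 0.0001.

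Peaks on assembled chromosomes were analysed with Python 3.11.15, numpy 2.4.6 and pandas 2.3.3, leaving out 95 (D6T-) and 109 (D12S-) others. They were called shared at 1 bp of overlap and placed by midpoint in the order promoter-TSS, transcript end, exon, intron and intergenic, with GENCODE vM1 protein-coding genes on mm9. The gene-body score sums the peaks that overlap a gene, so a neighbour's peak can add to it. Reference sequence is from the mm9 assembly. With 1 library per group there was no test; shares carry 95% Wilson intervals and differences of shares the interval built from them. Named genes were, per list, up to 3 in each direction, and the densest, highest unshared and largest folds over all genes (5 each); other genes named were picked after their values were seen, as examples. The overlap code was tested on simulated data. Alternatives were equal numbers of top-scoring peaks, fold over input of at least 4, 50% coverage, other minimum scores, scaling by the share of tags in peaks, input subtraction, and, chosen after seeing the data, 500-bp peaks and the score within the gene. Some listed genes are not reported here by name.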

Additional observations from a re-analysis of the deposited data

Results flagged for a closer look

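Input tags under H3.3 peaks stood out at 3 delivered factor loci, relative to the median input tags per kb of all peaks in the same library; the limit of 2 times was set after the values were seen. In D12S- the input at Pou5f1 was 18.0 times the library's median, against 1.08 in ESD3, with 175 input tags per 10 M beside a score of 379. Input was 2.14 times the median at Klf4 in D12S-, against 0.928 in D0, and 2.08 times at Myc in D6T-, against 1.31 in D0. At Sox2 it was 1.77 times in D6T- and 0.970 in D12S-. The cells carried viral copies of these genes, and reads from viral and endogenous copies cannot be told apart in these lists. Scores at these loci are therefore given without reading a direction from them.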

How the results depend on the processing

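No paired analysis was possible because each group had 1 library. Of 56 recomputed values that answer a comparison, 32 stayed within their limit, 24 moved and 0 reversed. With equal numbers of top-scoring peaks the Jaccard index was 0.465 and the shared percentages 69.4 (D6T-) and 66.9 (D12S-), the differences between D12S- alone and D6T- alone being 5.10 points for intergenic, 10.4 for D0, 12.4 for iPSCs and 1.35 for AP-1, whose interval spans 0 (-0.821 to 3.49). With fold over input of at least 4 these were 0.270, 33.1 and 30.2, with 2.28 for D0, 0.711 for iPSCs and 2.24 for AP-1, and 1977 genes bound in D6T- alone and 2451 in D12S- alone, against 1037 and 1595. With 50% coverage the shares were 47.3 and 40.9, with 4.92 for D0 and 5.49 for iPSCs. For 500-bp peaks the differences were 2.01 (intergenic), 2.55 (D0) and 3.54 (iPSCs) points. With a minimum score of 50, the 2-fold calls were 1548 in D12S- and 709 in D6T-, with fewer genes tested, against 2424 and 1149. The interferon list kept its direction in every alternative tried. It was written after values were seen and rescored on the same libraries, so this is a description only. Higher in D12S- were 13 of 16 compared genes (minimum of 50), 21 of 27 (no minimum) and 15 of 20 (score within the gene), and 0 in D6T-. Of all genes compared, 17.3%, 20.2% and 16.6% were higher in D12S- under these settings, in that order. For other values, 122 stayed and 70 moved. Causes of the moves were not tested. With no replicates, intervals cover counting error only, and peaks near the threshold (5 to 7 tags per 10 M) are the least certain.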

Other observations

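Among 12 H3.3 libraries, peaks found in all of the other 10 made up 9.06% (4591) of the shared D6T- peaks and 9.75% (4798) of the shared D12S- peaks, with median scores of 81.4 and 96.2. Of the shared D6T- peaks, 22.1% were in D0 but in neither iPSCs nor ESD3, 16.3% in iPSCs or ESD3 but not in D0, and 25.6% in none of these 3. Of the peaks of D6T- alone, 62.7% were in none of these 3.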
